A study of Mus musculus with 12 samples.

Results

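Immediate early genes are transcribed within minutes of a stimulus, without the need for new protein. In the brain they are switched on by synaptic calcium entry and growth factor signals that reach the factors CREB and SRF on their promoters, and they are widely used as marks of recent neuronal activity. The 10 genes described here were chosen by name, as rows of the deposited table of 43346 genes: Fos, Fosb, Junb, Egr1, Egr2, Arc, Npas4, Nr4a1, Dusp1 and Ier2. All 10 were found once each, and all 10 passed the filter on low counts, which kept 22553 genes for testing.

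RNA was sequenced from 12 mouse brain libraries in 3 groups of 4, each from a slab of tissue described as holding hippocampus and cortex. The Old_CP2 mice, of 23 months and strain C57BL/6;SJL-Tg by label, drank CP2, an inhibitor of mitochondrial complex I, at 25 mg per kg per day in water with 0.1% polyethylene glycol (PEG) from 9 months of age. The Old mice matched them in age and strain and were given water with 0.1% PEG but no drug from 9 months on. The Young mice were untreated C57BL/6 animals of 3 months, so that age, strain label and vehicle all separate them from the other groups. All 12 samples are labelled wild type and their titles begin with NTG, whereas the design text speaks of a treated transgenic line. That conflict could not be settled from the sources used here. The labels do not say that each library is a separate animal, so the p-values below measure spread between libraries only.

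Depth was 78021395 to 99449665 counts in Old_CP2, 70548781 to 94741585 in Old and 77469073 to 91549618 in Young. The immediate early genes were well covered, with 115 to 26497 counts per gene and library, so counting error is small beside the differences described here. Excitatory neuron markers of cortex and hippocampus were abundant in every library. Choroid plexus markers, 10 genes, summed to 29.0 to 846 CPM (counts scaled to a common depth with library factors) in Old_CP2 and 33.02 to 984 CPM in Old, against 1242 to 1999 CPM in Young. Markers of midbrain and hindbrain neurons summed to 76.5 to 231 CPM in Old_CP2 and 82.5 to 160.2 CPM in Old, against 9.43 to 35.5 CPM in Young. Of these 13 genes, Hoxb3 and Hoxb5 were at 0 in all Young libraries. Old 7 and Old_CP2 15 held the most midbrain and hindbrain RNA and the least excitatory neuron RNA of their groups. In bulk tissue, fewer cells of a type and less RNA per cell cannot be told apart.

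The promoters of 7 of the 10 genes were in the RefSeq table of windows from 250 bases before to 50 bases after the start site (GRCm38.p6). Of the 6 that carry TGACG, the core of the CREB element, 4 are shown, those with more than 1 copy. The element links calcium and cAMP signals to transcription. Capitals mark TGACG or its reverse complement. The windows are chr12:85473640-85473939 on the plus strand for Fos, chr19:4989922-4990221 on the minus strand for Npas4, chr15:101266596-101266895 on the plus strand for Nr4a1 and chr17:26508423-26508722 on the minus strand for Dusp1, each written 5′ to 3′.
Fos: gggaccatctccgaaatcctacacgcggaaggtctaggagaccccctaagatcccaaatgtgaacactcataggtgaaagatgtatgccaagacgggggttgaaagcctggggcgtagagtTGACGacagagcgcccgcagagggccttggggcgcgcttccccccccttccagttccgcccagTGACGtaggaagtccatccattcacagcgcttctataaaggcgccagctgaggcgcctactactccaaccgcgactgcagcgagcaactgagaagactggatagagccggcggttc
Npas4: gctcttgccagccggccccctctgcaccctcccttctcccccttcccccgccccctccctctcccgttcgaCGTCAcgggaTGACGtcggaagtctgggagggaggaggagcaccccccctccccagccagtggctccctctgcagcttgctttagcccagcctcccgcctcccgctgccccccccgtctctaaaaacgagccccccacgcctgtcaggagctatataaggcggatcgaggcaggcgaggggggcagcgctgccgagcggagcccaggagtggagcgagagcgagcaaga
Nr4a1: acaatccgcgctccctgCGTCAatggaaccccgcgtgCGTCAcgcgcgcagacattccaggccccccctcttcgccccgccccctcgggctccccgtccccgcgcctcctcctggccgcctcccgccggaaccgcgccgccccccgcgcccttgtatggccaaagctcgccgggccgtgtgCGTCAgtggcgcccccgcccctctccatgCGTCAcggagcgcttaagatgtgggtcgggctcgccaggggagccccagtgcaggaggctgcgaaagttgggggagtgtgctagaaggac
Dusp1: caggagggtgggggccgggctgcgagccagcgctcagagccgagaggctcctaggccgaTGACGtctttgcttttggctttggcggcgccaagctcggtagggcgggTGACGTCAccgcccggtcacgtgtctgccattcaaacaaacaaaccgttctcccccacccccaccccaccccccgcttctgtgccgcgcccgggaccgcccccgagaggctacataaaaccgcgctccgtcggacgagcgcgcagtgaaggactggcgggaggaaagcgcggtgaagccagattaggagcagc
The core, searched on both strands, was in 6 of the 7 promoters, those of Fos, Fosb, Junb, Npas4, Nr4a1 and Dusp1, and in 20.8% of all 32851 windows of the same length. Nr4a1 held 4 copies, and the copy of Fos nearest its start lay at -66 to -62 from it. The whole palindrome TGACGTCA, which contains the core on both strands, was in 1 of the 7, at -143 to -136 in Dusp1, and in 1.79% of all windows. The EGR site GCGGGGGCG was in 2 of the 7, Fosb and Nr4a1, and in 2.91% of all windows. The SRF element known as the CArG box was in 0 of the 7 and in 1.63% of all windows, and the AP-1 site TGANTCA in 0 of the 7 and in 7.81%. These are matches of letters within a short window and do not show binding. Sites more than 250 bases before the start were not searched, so 0 matches do not mean that a gene lacks the element. No sequence is shown for Arc, Egr1 and Ier2. In the deposited table (mm10) Fos lies at chr12:85473890-85477273, Npas4 at chr19:4984355-4989971, Nr4a1 at chr15:101266846-101274792 and Dusp1 at chr17:26505590-26508519.

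Among the AP-1 subunits, Fos, the partner that dimerises with Jun proteins, had 55.1, 50.4, 23.4 and 19.7 CPM in Old_CP2 11, 12, 13 and 15, against 11.7, 33.6, 28.9 and 13.5 CPM in Old 7, 8, 9 and 10 and 7.44, 7.46, 13.6 and 22.5 CPM in Young 1, 3, 4 and 5. Each group thus held a pair of high and a pair of low libraries, and the low Old_CP2 libraries fell within the range of Old. In the same order of libraries, its paralog Fosb (ENSMUSG00000003545, chr7:19302721-19310045) had 20.5, 21.0, 9.98 and 9.39 CPM in Old_CP2, 6.59, 14.03, 13.7 and 6.45 CPM in Old, and 6.60, 6.62, 7.49 and 11.6 CPM in Young. The counts are per gene and do not separate the full-length Fosb transcript from the shorter one for the stable variant that builds up after repeated stimulation. Junb (ENSMUSG00000052837, chr8:84976909-84978748), the Jun family partner, had 92.8, 87.2, 52.4 and 43.6 CPM in Old_CP2, 27.0, 61.4, 64.1 and 29.9 CPM in Old, and 22.3, 18.02, 31.1 and 53.4 CPM in Young. For all 3 subunits the highest values of the study were those of Old_CP2 11 and 12.

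The zinc finger factors Egr1 and Egr2 differed in how far single libraries departed. Egr1 (ENSMUSG00000038418), which is expressed steadily in cortex and hippocampus and rises further with activity, had 245, 269.9, 181 and 129 CPM in Old_CP2, 74.0, 194, 176 and 75.3 CPM in Old, and 90.9, 72.5, 114 and 151 CPM in Young. Egr2 (ENSMUSG00000037868, chr10:67535475-67542188), best known as a factor of hindbrain patterning and of myelinating Schwann cells, had 12.9, 13.5, 6.22 and 3.41 CPM in Old_CP2, 2.27, 6.28, 6.797 and 1.60 CPM in Old, and 1.49, 1.63, 2.61 and 13.1 CPM in Young. Young 5 was as high in Egr2 as the highest Old_CP2 libraries, while the other Young libraries were among the 5 lowest of all 12. Per length, Egr2 stood at 0.115 of Egr1 in Young 5 and at 0.0216 to 0.0301 of it in the other Young libraries.

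Npas4 and Arc are the most neuronal of the set. Npas4, a factor that responds selectively to calcium entry in neurons, had 29.2, 21.1, 8.85 and 16.4 CPM in Old_CP2, 4.52, 20.6, 21.0 and 7.24 CPM in Old, and 7.07, 5.78, 14.4 and 8.23 CPM in Young. Its order within groups departed from that of Fos, since Old_CP2 15 was above Old_CP2 13 and Young 4 above Young 5. Ier2, described below, shared both departures. Arc (ENSMUSG00000022602, chr15:74669083-74672570), a synaptic protein that drives uptake of AMPA receptors, had 224, 244, 131 and 108 CPM in Old_CP2, 49.2, 187, 218 and 78.6 CPM in Old, and 55.4, 38.3, 79.0 and 127 CPM in Young. Old 8 and Old 9 lay closer to Old_CP2 11 and 12 than to Old 7 and 10 in both genes, and Old 7 was the lowest of Old in both.

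Of the remaining members, Nr4a1 is an orphan nuclear receptor, Dusp1 a phosphatase that switches off MAP kinases and so ends the signal, and Ier2 (ENSMUSG00000053560, chr8:84661331-84662852) a nuclear protein of the growth factor response. Nr4a1 had 130.0, 125, 82.8 and 49.8 CPM in Old_CP2, 35.5, 91.0, 91.6 and 41.0 CPM in Old, and 34.8, 28.7, 34.8 and 66.3 CPM in Young. Dusp1 had 54.2, 52.6, 29.9 and 28.4 CPM in Old_CP2, 17.7, 43.1, 36.6 and 23.4 CPM in Old, and 20.1, 16.4, 23.5 and 31.3 CPM in Young. Ier2 had 13.1, 11.2, 7.11 and 7.36 CPM in Old_CP2, 5.74, 9.53, 8.36 and 6.54 CPM in Old, and 4.19, 3.92, 7.75 and 5.97 CPM in Young. All 3 followed the split into high and low libraries, except that Young 4 and Young 1 were level in Nr4a1, with Young 5 alone apart. All groups overlapped.

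**Figure D1:**
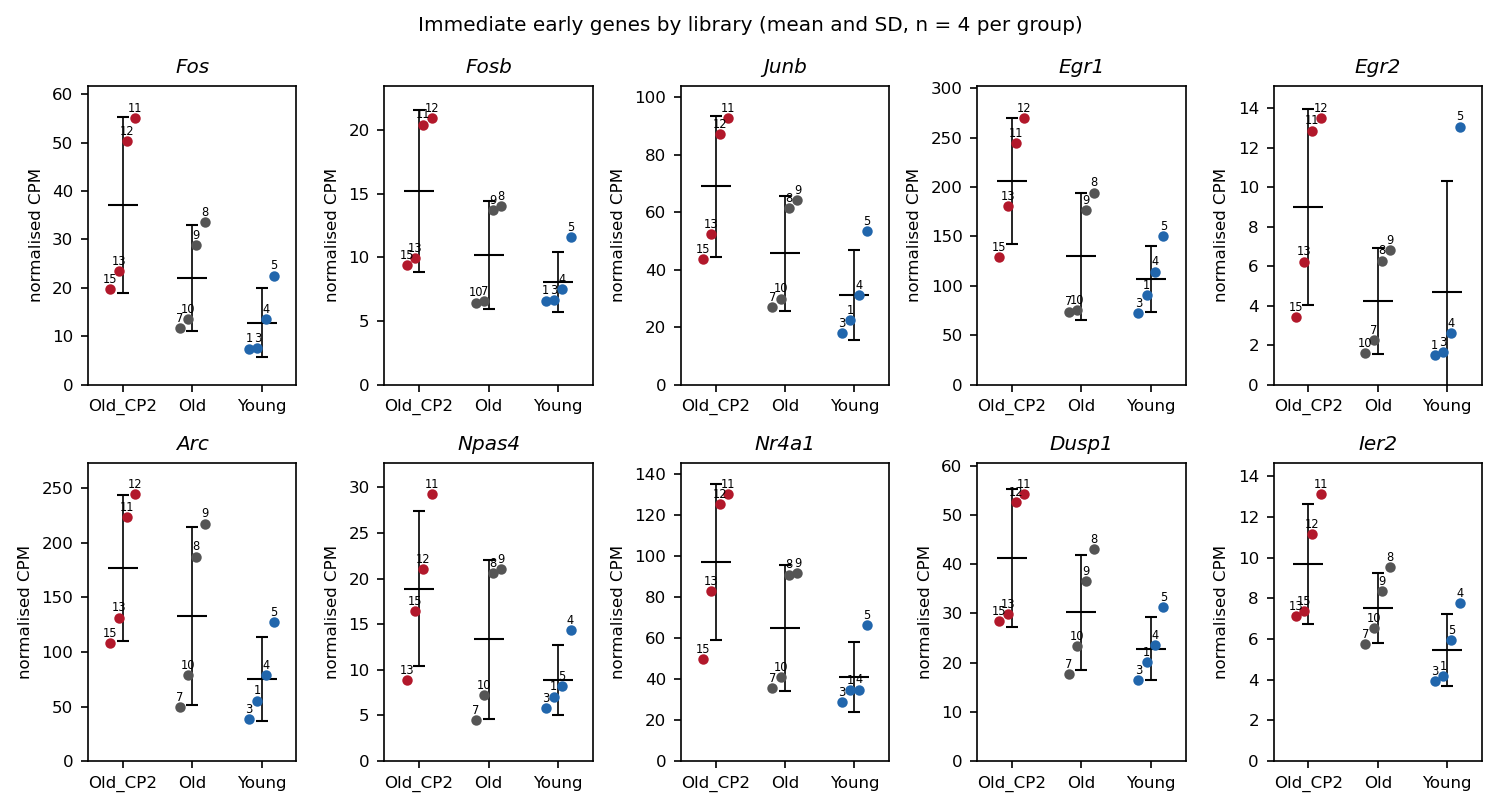
Normalised CPM (y axis, linear from 0) of each gene in the 4 libraries of Old_CP2, Old and Young, with library numbers beside the points and black bars for the mean and SD. In every panel Old_CP2 11 and 12, Old 8 and 9 and Young 4 and 5 are the higher libraries of their groups, and the groups overlap.

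Per length, in the authors' deposited RPKM (reads per kilobase and depth), the order of the genes was nearly the same in every group. In Old_CP2 it ran from Arc at 49.0 ± 18.4, Egr1 at 38.9 ± 11.7, Nr4a1 at 33.2 ± 12.8 and Junb at 31.7 ± 11.2 RPKM to Fos at 13.4 ± 6.47 and Dusp1 at 12.96 ± 4.33 RPKM. Below them were Ier2 at 5.395 ± 1.61, Npas4 at 4.89 ± 2.19, Fosb at 3.43 ± 1.42 and Egr2 at 2.24 ± 1.23 RPKM (mean ± SD, n = 4). The neighbours Nr4a1 and Junb, Fos and Dusp1, and Ier2 and Npas4 did not keep 1 order in all 4 libraries. In Old the order differed in that Dusp1 (9.01 ± 3.24) stood above Fos (7.48 ± 3.53 RPKM), in all 4 libraries. In Young, Dusp1 (6.895 ± 1.997) again stood above Fos (4.43 ± 2.53 RPKM) in all 4 libraries, and Junb (13.8 ± 7.17) and Nr4a1 (13.6 ± 5.77 RPKM) changed places, with each above the other in 2 of 4, as were Arc (20.02 ± 10.6) and Egr1 (19.4 ± 6.35 RPKM). Fosb per length was 0.233 to 0.299 of Fos in Old_CP2, 0.262 to 0.353 of it in Old and 0.323 to 0.556 of it in Young. The highest of these ratios, 0.556 in both Young 1 and Young 3, came from the libraries lowest in Fos.

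The difference between libraries of 1 group was the main feature of these genes. Old_CP2 11 and 12 were the highest 2 libraries of Old_CP2 in 10 of 10 genes, Old 8 and 9 those of Old in 10 of 10, and Young 4 and 5 those of Young in 10 of 10. For Nr4a1 the order in Young rested on 34.80 CPM in Young 4 against 34.76 CPM in Young 1. The highest library of a group held 1.84 times (Ier2) to 3.96 times (Egr2) the lowest in Old_CP2, 1.66 times (Ier2) to 4.65 times (Npas4) in Old and 1.76 times (Fosb) to 8.77 times (Egr2) in Young. Averaged over the 10 genes and centred on all 12 libraries, the log2 CPM was 1.13 in Old_CP2 11, 1.07 in Old_CP2 12, 0.18 in Old_CP2 13 and -0.03 in Old_CP2 15. It was -0.81 in Old 7, 0.60 in Old 8, 0.56 in Old 9 and -0.61 in Old 10, and -0.88 in Young 1, -1.08 in Young 3, -0.35 in Young 4 and 0.22 in Young 5. Old_CP2 13 and 15 thus lay below Old 8 and 9, and Young 5 lay above Old_CP2 15 and above Old 7 and 10. Young 5 was near Old_CP2 13 in this mean, and above it only in Fosb, Junb, Egr2 and Dusp1. Of these, Egr2 differed most, at 1.58 in Young 5 and 0.51 in Old_CP2 13.

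**Figure D2:**
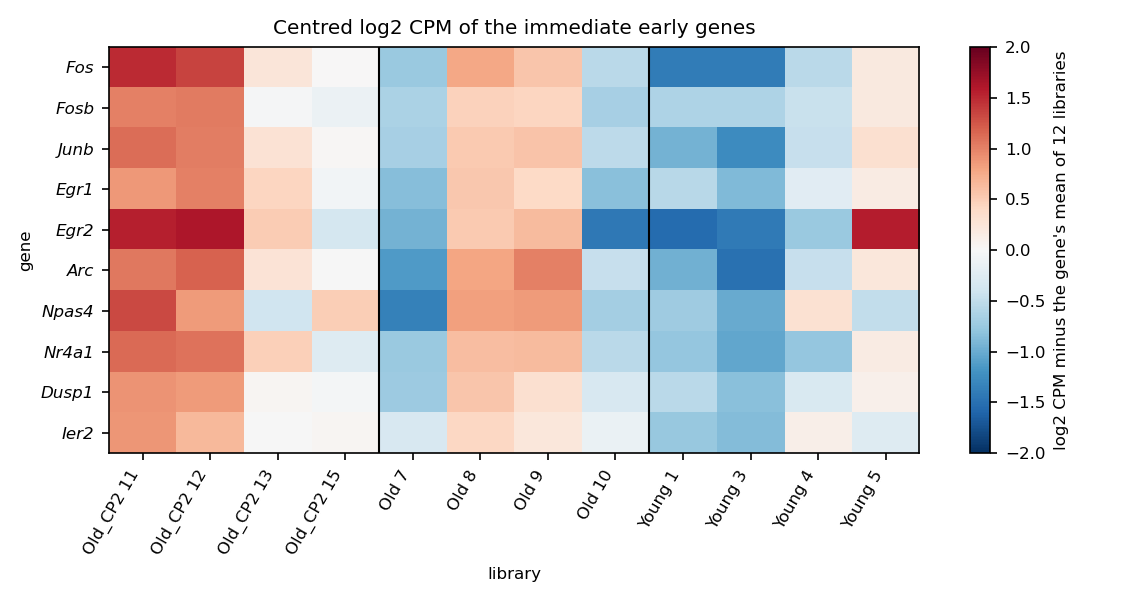
Log2 CPM of each gene (rows) minus its mean over the 12 libraries, for the 12 libraries (columns, grouped as Old_CP2, Old and Young). Columns change colour together: Old_CP2 11 and 12 are high in all 10 genes, and Egr2 in Young 5 is the cell that departs most from its column.

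Against other genes this spread was wide. The SD of log2 CPM within groups, pooled over the 3 groups, ran from 0.413 for Ier2 and 0.502 for Dusp1 to 0.831 for Npas4 and 1.16 for Egr2, while the median of the 16696 genes with a mean of at least 1 CPM was 0.117. The 10 genes stood between the 96.2 and 99.6 percentile of those genes. They also moved together. Each gene's log2 CPM correlated with the mean of the other 9 at a Pearson r of 0.833 (Npas4) to 0.990 (Junb) over the 12 libraries, and at 0.765 (Npas4) to 0.987 (Junb) once group means were removed. These values describe genes measured in the same 12 libraries and carry no test.

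**Figure D3:**
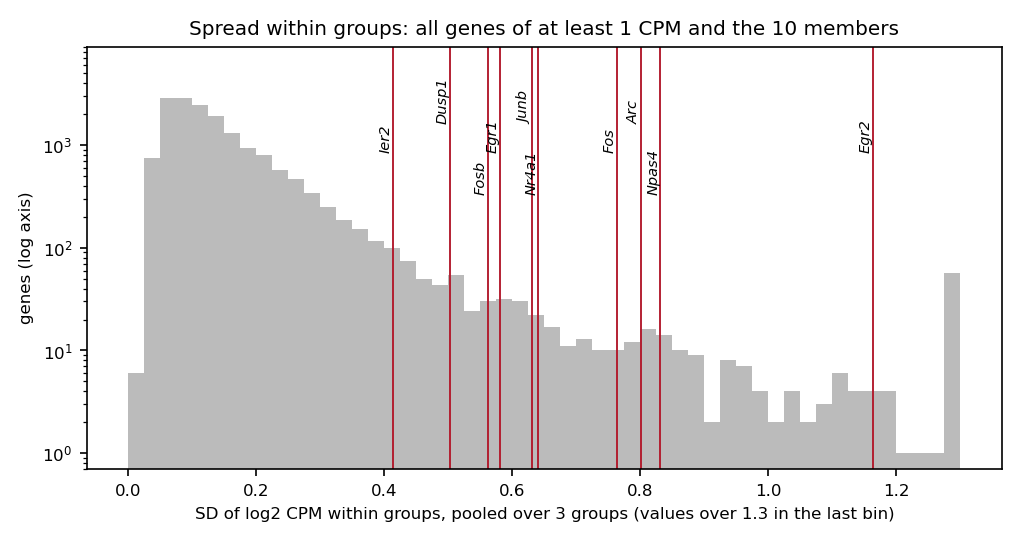
Histogram of the pooled SD of log2 CPM within groups for 16696 genes of at least 1 CPM (y axis, log scale), with a red line at each immediate early gene. The lines run from 0.413 (Ier2) to 1.16 (Egr2), against a median of 0.117 for all genes shown.

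Of the 13939 other genes with a proper name and a mean of at least 1 CPM, the 8 most like the mean of the 10 over the 12 libraries were Egr4, Btg2, Mtmr1, Cyr61, Mcl1, Sertad1, Nr4a3 and Arid4a, at Pearson r of 0.960 to 0.911. With group means removed their r was 0.987, 0.940, 0.911, 0.897, 0.910, 0.890, 0.867 and 0.915 in that order. Egr4, a further EGR factor, had 33.4 ± 11.96 CPM in Old_CP2, 21.6 ± 8.24 CPM in Old and 20.9 ± 6.65 CPM in Young. Btg2, an antiproliferative early response gene, had 23.8 ± 9.35 CPM in Old_CP2, 18.04 ± 6.72 CPM in Old and 12.7 ± 4.11 CPM in Young. The phosphoinositide phosphatase gene Mtmr1 followed the same libraries within a far narrower range, at 47.2 ± 1.59 CPM in Old_CP2, 45.7 ± 2.49 CPM in Old and 43.8 ± 1.72 CPM in Young. Mcl1, an antiapoptotic BCL2 relative, had 66.1 ± 3.05 CPM in Old_CP2, 61.1 ± 2.84 CPM in Old and 57.0 ± 3.59 CPM in Young.

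The libraries that were highest in the 10 genes were also the highest 2 of all 3 groups at once for 169 of the 16696 genes, or 1.01%. Among 24 other early response regulators, a list of factors known from stimulated cells, this held for 4: Egr4, Btg2, Klf10 and Ier5. Among 30 early effectors it held for 4: Cyr61, a matrix protein of vessels, the MAP kinase phosphatase gene Dusp6, the pseudokinase gene Trib1 and Coq10b. It held for 0 of 19 late response genes and for 0 of 34 genes of the signalling pathway upstream. The median r with the mean of the 10 genes was 0.721 for the early regulators, 0.717 for the early effectors, 0.0597 for the late genes and 0.237 for the upstream genes. The libraries were picked by the 10 genes, so these counts describe which other genes share the pattern and are no test.

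Excitatory neuron markers, a list of 10 genes from Slc17a7 to Fezf2, summed to 1862, 2065, 1849.7 and 1615 CPM in Old_CP2 11, 12, 13 and 15, to 1314, 1905, 1872 and 1794 CPM in Old 7, 8, 9 and 10, and to 2049, 1915, 2141 and 2134 CPM in Young 1, 3, 4 and 5. Old 7 was the lowest of the 12 in these markers and the lowest of Old in 8 of the 10 early genes, and Old_CP2 15 was the lowest of Old_CP2 in these markers and in 8 of the 10. Within groups the sums split the libraries as the early genes did, with Old_CP2 11 and 12, Old 8 and 9 and Young 4 and 5 the highest 2 of their groups. Between groups Young had the highest mean sum and the lowest mean of the early genes, and the fits with these markers as a covariate are given with each comparison. Red blood cell markers, 6 genes that include the globins, summed to 228 to 444 CPM in Old_CP2, 81.7 to 148 CPM in Old and 59.2 to 91.0 CPM in Young, with Old_CP2 13 and 15, low in the early genes, at 444 and 408 CPM and Old_CP2 11 and 12 at 274 and 228 CPM. Markers of pericytes and smooth muscle, 8 genes, summed to 169 to 242 CPM in Old_CP2, 132 to 159 CPM in Old and 155 to 189.6 CPM in Young. Microglia markers, 8 genes, summed to 339.7 to 395 CPM in Old_CP2, 349 to 369 CPM in Old and 247 to 314 CPM in Young. The part of the vessel, blood and microglia lists in the values of the early genes was not tested.

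**Figure D4:**
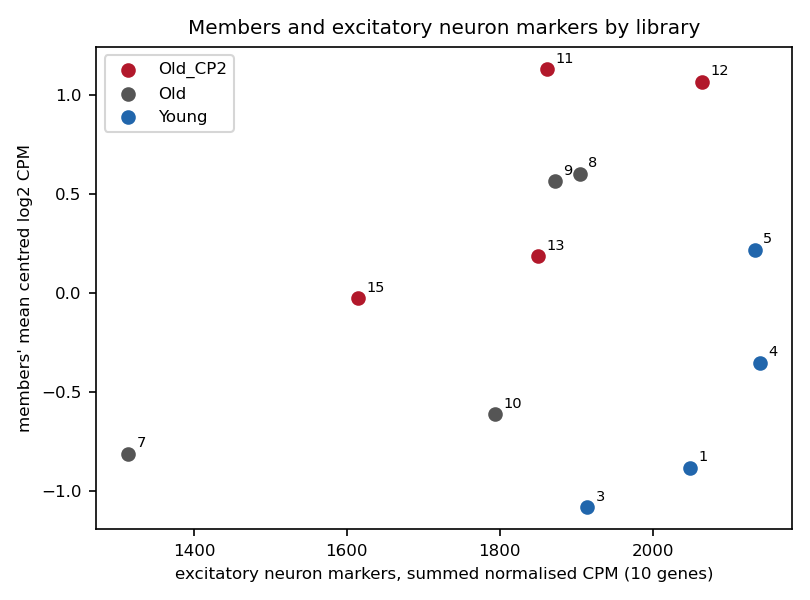
Mean centred log2 CPM of the 10 genes (y axis) against the summed normalised CPM of 10 excitatory neuron markers (x axis), 1 point per library with its number, coloured by group. Old 7 is lowest on the x axis at 1314 CPM, and Young libraries lie to the right at 1915 to 2141 CPM with y values of -1.08 to 0.22.

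Old_CP2 against Old sets drug against vehicle in mice of 1 age and strain label. All 10 genes had higher means in Old_CP2, where 50.6% of all genes had a log2 fold change above 0. EdgeR's quasi-likelihood test with Benjamini-Hochberg adjustment over 22553 genes called 0 of the 10 at an adjusted p under 0.05. The same test called 0.0443% of all genes (0.0266% higher and 0.0177% lower), and at an unadjusted p under 0.05 it held 0 of the 10 against 6.31% of all genes; DESeq2 also called 0. The smallest adjusted p was that of Egr1 at 206 ± 63.5 CPM in Old_CP2 and 130.0 ± 64.4 CPM in Old (4 libraries each), a log2 fold change of 0.67 ± 0.336 (SE) with a 95% interval of -0.06 to 1.39 and an edgeR adjusted p of 0.802. Fos averaged 37.1 ± 18.2 CPM in Old_CP2 and 21.9 ± 10.96 CPM in Old (log2 fold change 0.76, 95% interval -0.19 to 1.72). The largest estimate was that of Egr2, at 9.00 ± 4.97 CPM in Old_CP2 and 4.24 ± 2.68 CPM in Old (1.10, interval -0.41 to 2.60), and the smallest that of Ier2, at 9.69 ± 2.94 CPM in Old_CP2 and 7.54 ± 1.72 CPM in Old (0.37, interval -0.17 to 0.90), with 0.18 without Old_CP2 11. For Arc the interval ran from -0.57 to 1.39, and its estimate of 0.41 was 0.13 without Old 7 and 0.75 without Old 9.

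The median of the 10 log2 fold changes was 0.58, where the median over all genes was 0.00. Groups were apart, with no overlap of the 4 and 4 values, in 0 of the 10 genes and in 3.44% of all genes. The median was 0.39 without Old 7 and 0.40 without Old_CP2 11, and 0.59 without Old 7 and Old_CP2 15 together. With the excitatory neuron markers as a covariate it was 0.27, and 0 of the 10 were called under each of these settings.

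No other early gene was called in this comparison either. Of 24 other early regulators edgeR called 0, with 22 higher in Old_CP2, 5 at an unadjusted p under 0.05 and a median of 0.24 on the log2 scale. Of 30 early effectors it called 0, with 28 higher, 4 at an unadjusted p under 0.05 and a median of 0.18. Of all genes 50.6% were higher and 6.31% had an unadjusted p under 0.05. Both lists moved with the 10 genes over the libraries (median r 0.721 and 0.717), so their directions are not separate results. The lowest p among the regulators were those of the clock gene Per1, at 94.0 ± 18.4 CPM in Old_CP2 and 69.5 ± 11.9 CPM in Old (adjusted p = 0.649), and Bhlhe40, a repressor tied to the clock, at 115 ± 17.2 CPM in Old_CP2 and 93.0 ± 9.01 CPM in Old (adjusted p = 0.688). Among the effectors they were those of the kinase genes Plk3, at 11.2 ± 0.837 CPM in Old_CP2 and 9.20 ± 1.15 CPM in Old (adjusted p = 0.634), and Sgk1, at 74.7 ± 24.7 CPM in Old_CP2 and 50.5 ± 8.75 CPM in Old (adjusted p = 0.730). The 19 late genes, with 0 called and 1 at an unadjusted p under 0.05, had a median of 0.02, and the 34 upstream genes, with 0 called and 0 at an unadjusted p under 0.05, a median of 0.03. Lowest in p there were Mfap3l at 62.8 ± 3.66 CPM in Old_CP2 and 70.9 ± 5.60 CPM in Old and the activin subunit gene Inhba at 1.79 ± 0.0967 CPM in Old_CP2 and 2.35 ± 0.367 CPM in Old. In the upstream list they were the factor gene Mef2c at 338 ± 70.7 CPM in Old_CP2 and 268 ± 59.9 CPM in Old and the kinase gene Rps6ka1 at 17.4 ± 1.299 CPM in Old_CP2 and 19.7 ± 3.46 CPM in Old.

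**Figure D5:**
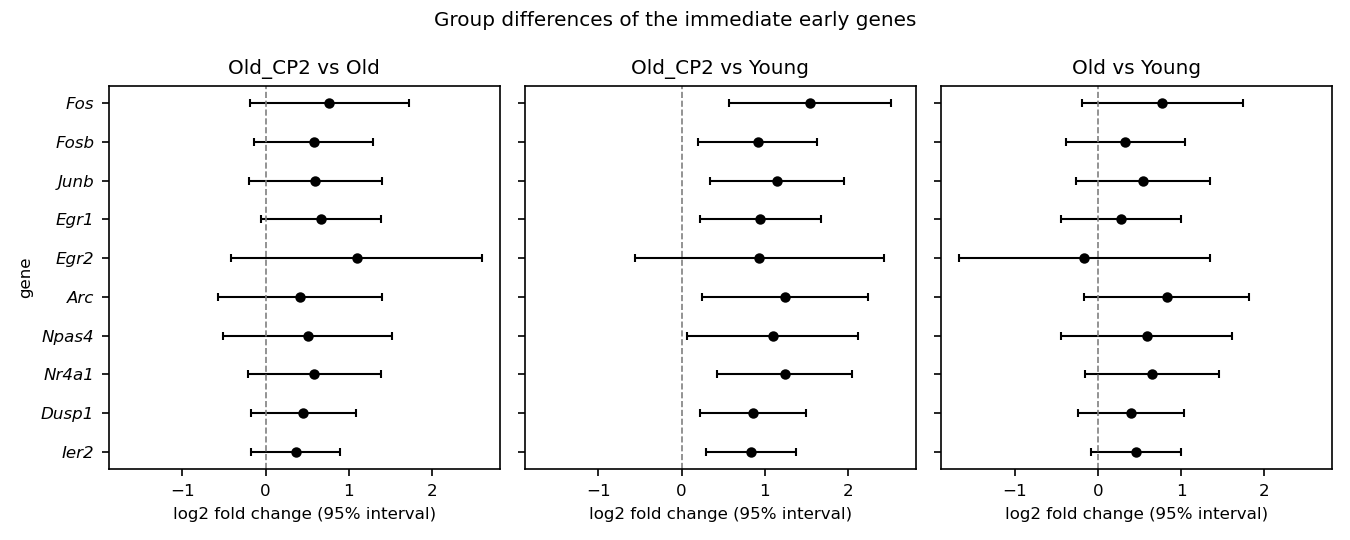
Log2 fold change (x axis) of each gene in Old_CP2 against Old, Old_CP2 against Young and Old against Young, with 95% intervals from the edgeR fit. Every interval for Old_CP2 against Old and Old against Young includes 0, and 9 of 10 for Old_CP2 against Young lie above 0, before adjustment over all genes.

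Old_CP2 and Young differ in age, strain label, vehicle and drug at once. All 10 genes were higher in Old_CP2, as were 48.2% of all genes, with a median log2 fold change of 1.02 where the median over all genes was -0.01. At an unadjusted p under 0.05 the count was 9 of 10 against 23.2% of all genes, yet edgeR called 0 of the 10 after adjustment, against 7.57% of all genes (4.63% higher). The 10 genes moved together over the 12 libraries, at a median Pearson r of 0.931 between pairs, so they are not 10 separate results. Fos came closest, at 37.1 ± 18.2 CPM in Old_CP2 and 12.8 ± 7.13 CPM in Young (4 libraries each), a log2 fold change of 1.54 ± 0.453 (SE) with an edgeR adjusted p of 0.0563. Ier2 followed at 9.69 ± 2.94 CPM in Old_CP2 and 5.46 ± 1.78 CPM in Young (0.83 ± 0.251, adjusted p = 0.0623), and Nr4a1 at 97.0 ± 38.0 CPM in Old_CP2 and 41.1 ± 17.0 CPM in Young (1.24 ± 0.376, adjusted p = 0.0638). Junb (1.14, adjusted p = 0.0828), Dusp1 (0.85, adjusted p = 0.0997), Egr1 (0.95, adjusted p = 0.112), Fosb (0.91, adjusted p = 0.119), Arc (1.24, adjusted p = 0.127) and Npas4 (1.09, adjusted p = 0.188) were between these and Egr2 (0.93, adjusted p = 0.460). The groups overlapped in all 10 genes, where 15.5% of all genes showed no overlap.

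Whether single members were called here turned on the fit. DESeq2 called 3, Fos (adjusted p = 0.0334), Nr4a1 (0.0417) and Ier2 (0.0440), with 2652 of all genes called, against 1707 in the main fit. EdgeR called the same 3 with no filter on low counts. Without Young 5, the Young library with the most early gene RNA, edgeR called Fos, Junb, Egr2 and Nr4a1, with Egr2 at 2.24 on the log2 scale. Without Young 4 or without Old_CP2 13 it called Ier2 alone, and without Old_CP2 15 it called Fos, Nr4a1 and Ier2. All genes called then numbered 1210 without Young 5, 1036 without Young 4, 1411 without Old_CP2 13 and 1590 without Old_CP2 15. Leaving out Old 7 and Old_CP2 15 together gave 6 calls, and the excitatory neuron covariate gave 9, all but Egr2. Covariates for choroid plexus or for midbrain and hindbrain markers gave 0. Each of these lists separates every Young library from every old one, so list and group cannot be told apart there.

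Other early genes passed the test where the 10 did not. Of the 24 regulators, 6 rose and 0 fell in Old_CP2 against Young, where 4.63% of all genes were called higher: Bhlhe40 (115 ± 17.2 CPM in Old_CP2, 78.3 ± 9.99 CPM in Young, edgeR adjusted p = 0.00962), the Fos relatives Fosl2 (51.7 ± 15.8 CPM in Old_CP2 and 27.4 ± 4.74 CPM in Young, 0.0129) and Fosl1 (4.69 ± 0.635 CPM in Old_CP2 and 3.52 ± 0.206 CPM in Young, 0.0318), the stress factor Atf3 (1.57 ± 0.527 CPM in Old_CP2 and 0.573 ± 0.256 CPM in Young, 0.0216), and the Nr4a1 relatives Nr4a3 (56.2 ± 14.7 CPM in Old_CP2 and 34.4 ± 8.58 CPM in Young, 0.0365) and Nr4a2 (58.7 ± 12.2 CPM in Old_CP2 and 42.5 ± 4.41 CPM in Young, 0.0495). Bhlhe40 and Fosl2 stayed called whichever 1 of the 8 libraries was left out. Atf3 was not called without Old_CP2 11 or 12, Fosl1 and Nr4a3 not without Young 1, 3 or 4 or Old_CP2 11 or 12, and Nr4a2 not once any Young library or Old_CP2 11 or 12 was left out. Of the 30 effectors, 2 rose and 1 fell, a share near the 7.57% of all genes called. Spry4, an inhibitor of growth factor signalling, was at 17.4 ± 1.61 CPM in Old_CP2 and 12.8 ± 0.294 CPM in Young (adjusted p = 0.0111), Cyr61 at 8.50 ± 4.19 CPM in Old_CP2 and 3.29 ± 0.631 CPM in Young (0.0418) and the small GTPase gene Rasl11a at 3.495 ± 0.518 CPM in Old_CP2 and 5.33 ± 1.03 CPM in Young (0.0438). Cyr61 was called only without Old_CP2 13 or 15 and Rasl11a only without Young 3, when 1 library was left out, while Spry4 was called whichever it was.

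Late response genes are induced after the early factors, and many act at synapses. Of 19, 6 fell and 0 rose in Old_CP2 against Young by the edgeR test, with a median of -0.17 on the log2 scale, where the test called 2.94% of all genes lower. They were the synapse organiser Nptx2 at 32.1 ± 4.60 CPM in Old_CP2 and 54.7 ± 6.28 CPM in Young (adjusted p = 0.0190), the neuritin gene Nrn1 at 137 ± 7.33 CPM in Old_CP2 and 177 ± 11.3 CPM in Young (0.00621), Rgs4, which shortens responses through G protein coupled receptors, at 212 ± 30.8 CPM in Old_CP2 and 363 ± 40.1 CPM in Young (0.00636), Inhba at 1.79 ± 0.0967 CPM in Old_CP2 and 3.63 ± 0.963 CPM in Young (0.00639), neuropeptide Y, Npy, at 23.8 ± 2.32 CPM in Old_CP2 and 35.6 ± 1.74 CPM in Young (0.00892), and the secreted peptide precursor Vgf at 169.7 ± 6.51 CPM in Old_CP2 and 229 ± 29.5 CPM in Young (0.0209). Without single libraries these calls held except for Nptx2 without Young 4 or Old_CP2 11 and Vgf without Young 3 or 4 or Old_CP2 11 or 13. In the upstream pathway 2 of 34 rose and 2 fell, where 4.63% of all genes were called higher and 2.94% lower, so that the count is no result about the pathway: the kinase genes Mapk3 (158 ± 9.63 CPM in Old_CP2, 130.5 ± 6.51 CPM in Young, adjusted p = 0.0146) and Rps6ka4 (43.3 ± 0.710 CPM in Old_CP2 and 38.3 ± 0.690 CPM in Young, 0.0239), and the calcium kinase Camk4 (174 ± 25.8 CPM in Old_CP2 and 248.8 ± 20.3 CPM in Young, 0.00903) and calcium channel Cacna1c (109 ± 9.52 CPM in Old_CP2 and 132 ± 11.1 CPM in Young, 0.0415). When 1 library was left out, Cacna1c was called only without Old_CP2 12 or Young 5, and Rps6ka4 not without Young 4 or Old_CP2 11. Striatal neuron markers moved with the falls of the late genes, at 148 to 204 CPM in Old_CP2 and 259 to 428 CPM in Young for 8 genes, of which 5 were called lower (median -0.96), and their part in the falls was not tested. Of the 19 genes of the 4 lists named here, 18 stayed called with the excitatory neuron covariate and all 19 kept their direction. Rasl11a was the one lost (edgeR adjusted p = 0.05011). Bhlhe40 alone stayed called with the choroid plexus covariate, and none with the midbrain and hindbrain covariate. All 19 kept their direction with the choroid plexus covariate and 16 with the midbrain and hindbrain covariate. Fosl2 was at 0.86 and 0.91 in these fits, in that order (0.92 without a covariate), Atf3 at 1.53 and 1.47 (1.45), Inhba at -0.95 and -1.29 (-1.02) and Vgf at -0.45 and -0.47 (-0.43), so that these calls were lost at folds about as large. With the midbrain and hindbrain covariate Nrn1 was at -0.10 (-0.37) and Nptx2 at -0.028 (-0.77).

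Old against Young addresses age, with strain label and vehicle changed as well. Of the 10 genes 9 had higher means in Old and Egr2 a lower one, with a median log2 fold change of 0.51 where the median over all genes was 0.00. Of all genes 49.1% had a log2 fold change above 0. EdgeR called 0 of the 10, against 6.7% of all genes, and 0 of the 10 had an unadjusted p under 0.05, against 21.4%; DESeq2 called 0. The lowest adjusted p was 0.313, for Ier2 at 7.54 ± 1.72 CPM in Old and 5.46 ± 1.78 CPM in Young (0.46 ± 0.251 SE). Arc had the largest estimate, at 133 ± 81.9 CPM in Old and 75.0 ± 38.7 CPM in Young (0.83, 95% interval -0.16 to 1.82), and its estimate was 0.49 without Old 9. Egr2 was at 4.24 ± 2.68 CPM in Old and 4.70 ± 5.60 CPM in Young (-0.16, interval -1.67 to 1.35), and without Young 5 its estimate was 1.15. Single libraries moved the median of the 10 genes, to 0.32 without Old 8 or without Old 9 and to 0.77 without Young 5. Without Old 7 it was 0.67, with 4 of the 10 at an unadjusted p under 0.05 by edgeR, where 4305 of all genes were. Without Old 7 and Old_CP2 15 it was 0.66, with 5 of the 10, where 4707 of all genes were. Old 7 was the lowest of Old in 8 of the 10 genes, so leaving it out is not independent of them. The groups overlapped in all 10 genes, against no overlap in 13.3% of all genes. With the excitatory neuron covariate, chosen after seeing the data, the median was 0.91. Fos, Arc, Nr4a1 and Dusp1 were then called by edgeR, with adjusted p of 0.0404, 0.0127, 0.0189 and 0.0239, and 876 of all genes were called.

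In the same comparison 2 of 24 early regulators rose, where 3.96% of all genes were called higher. They were Fosl2 (44.2 ± 6.07 CPM in Old, 27.4 ± 4.74 CPM in Young, edgeR adjusted p = 0.0482) and Fosl1 (4.58 ± 0.344 CPM in Old and 3.52 ± 0.206 CPM in Young, 0.0484), and both calls were lost whichever 1 of the 8 libraries was left out. Of the 30 effectors 1 rose and 1 fell, the share of all genes called (6.7%): Spry4 at 16.7 ± 2.20 CPM in Old and 12.8 ± 0.294 CPM in Young (0.0250; not called without Young 1, 4 or 5 or Old 9) and Rasl11a at 3.06 ± 0.552 CPM in Old and 5.33 ± 1.03 CPM in Young (0.0152). Of the late genes 4 of 19 fell and 0 rose, where 2.74% of all genes were called lower. Rgs4 was at 184 ± 38.1 CPM in Old and 363 ± 40.1 CPM in Young (adjusted p = 0.00266), Npy at 22.6 ± 4.16 CPM in Old and 35.6 ± 1.74 CPM in Young (0.00620), Nrn1 at 136 ± 12.3 CPM in Old and 177 ± 11.3 CPM in Young (0.00646) and Nptx2 at 30.4 ± 8.45 CPM in Old and 54.7 ± 6.28 CPM in Young (0.0127), and these 4 stayed called whichever 1 library was left out. Of the 34 upstream genes, where 3.96% of all genes were called higher and 2.74% lower, 2 rose, Rps6ka4 (44.1 ± 2.01 CPM in Old and 38.3 ± 0.690 CPM in Young, 0.0142) and Mapk3 (152 ± 9.83 CPM in Old and 130.5 ± 6.51 CPM in Young, 0.0385), and 3 fell, Camk4 (178 ± 15.5 CPM in Old and 248.8 ± 20.3 CPM in Young, 0.0138), Cacna1c (104 ± 7.25 CPM in Old and 132 ± 11.1 CPM in Young, 0.0170) and the kinase gene Rps6ka3 (48.5 ± 2.39 CPM in Old and 56.8 ± 4.08 CPM in Young, 0.0370). Mapk3 was not called without Young 3, 4 or 5 or Old 9 or 10, and when 1 library was left out Rps6ka3 was called only without Young 1. The comparisons of Old_CP2 and Old with Young share the Young libraries. Striatal neuron markers moved with these falls, at 154 to 202 CPM in Old and 259 to 428 CPM in Young for 8 genes, of which 6 were called lower (median log2 fold change -0.93), and their part in the falls was not tested. With the excitatory neuron covariate 8 of the 13 genes stayed called, and Fosl1, Rasl11a, Camk4, Cacna1c and Rps6ka3 were not. Camk4 was then at -0.45 (adjusted p = 0.05004), against -0.49 without the covariate, and Cacna1c at -0.30, against -0.35, while the falls that stayed called included Nptx2 at -0.64, against -0.85, and Npy at -0.48, against -0.65. With the choroid plexus covariate Rgs4 alone stayed called, and all 13 kept their direction with folds such as 0.64 for Fosl2 (0.69 without it), 0.38 for Spry4 (0.38), -0.58 for Npy (-0.65) and -0.34 for Nrn1 (-0.39). With the midbrain and hindbrain covariate none was called and 11 of 13 kept their direction. The falls shrank or reversed, with Npy at -0.022 and Nptx2 at -0.11. The rises were about as large or larger, with Fosl2 at 0.69 (0.69 without it), Fosl1 at 0.43 (0.38), Spry4 at 0.56 (0.38), Rps6ka4 at 0.23 (0.20) and Mapk3 at 0.43 (0.22). Both of these lists separate every Young library from every Old one.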

How the data were processed

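The members and the other gene lists were chosen with earlier results of these data known. Per the labels' protocols, total RNA from a brain slab was made into libraries with a TruSeq kit that does not mark strand, and no other deposited gene model overlapped a member. Per the submitters' processing notes, bcl2fastq, TopHat and featureCounts of Subread were used on mm10; versions and annotation release are not given in the sources used here. Per the file headers, the authors deposited a gene count and an RPKM value per library, with a gene length.

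The test of counts was that of edgeR 4.0.16 (R 4.3.3): filterByExpr by group, TMM factors, and a quasi-likelihood fit to all 12 libraries with group as the only term. Tests were two-sided with Benjamini-Hochberg adjustment over 22553 genes and a threshold of 0.05; each adjusted p is from this test unless DESeq2 (1.42.0) is named. CPM are normalised, as mean ± SD. Log2 CPM used a prior count of 2. Standard errors and 95% intervals come from the F statistic. The fit was also run on simulated counts. These had a lower spread between libraries (dispersion) than any of the 10 genes, at 0.0631 (Ier2) to 0.434 (Egr2), so that run does not measure power or error for them. Symbols came from the deposited table, and 42462 of 43346 gene IDs were in the reference name table. Libraries of 1 group differed beyond sampling noise (chi-square over genes, lowest value per gene 14.7).

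Named genes were all 10 members, list members called in a comparison (up to 6 by p, or the 2 of lowest p where fewer than 2 were called), and the 8 genes most like the members' mean; of these 8, all but Egr4, Btg2, Mtmr1 and Mcl1 are given by name and r only, or under their list. Marker lists were used as levels by library. The alternatives were DESeq2, its size factors, no filter, only the 2 groups compared, 1 library left out, and covariates from midbrain and hindbrain or choroid plexus markers; the excitatory neuron covariate, the fit without Old 7 and Old_CP2 15, and the extension to genes of other lists were chosen after seeing the data.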

Additional observations from a re-analysis of the deposited data

Results flagged for a closer look

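Of 30 groups of 4 values, 10 genes in 3 groups, 2 held a library far from its nearest neighbour, by CPM and not by log2 CPM. Chance alone would do so in about 1 of 20, a share near 2 of 30, so the count is no result about these genes. Both flagged values were in Young 5, and the 10 genes moved together. Egr2 was at 13.1 CPM there, with the next Young library at 2.61 CPM, and this gap took 0.903 of the range of the group. Nr4a1 was at 66.3 CPM there, with the next at 34.8 CPM, and the gap took 0.838 of the range. Young 5 was the highest of Young in 8 of the 10 genes, all but Npas4 and Ier2.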

How the results depend on the processing

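No paired analysis was possible because the groups share no replicate numbers. In Old_CP2 against Old, 0 of the 10 genes were called under all 16 alternatives and the median log2 fold change stayed positive (0.27 to 0.80). All genes called numbered 10 there, against 108 with DESeq2, 17 with no filter, 32 without Old 7 and Old_CP2 15, and 6 (Old 9) to 38 (Old_CP2 15) without single libraries. In Old_CP2 against Young, members called were 3 with DESeq2, 3 with no filter, 2 with only those groups fitted, 9 with the excitatory neuron covariate, 6 without Old 7 and Old_CP2 15, and 0 to 4 without single libraries. All genes called numbered 1707, against 2652 with DESeq2, 326 with the choroid plexus and 1 with the midbrain and hindbrain covariate (2064 at an unadjusted p under 0.05), and 827 to 1590 without single libraries, with 827 without Old_CP2 11, 1050 without Young 1, 1036 without Young 4 and 1043 without Old_CP2 12. In Old against Young, 4 members were called with the excitatory neuron covariate and 0 otherwise. All genes called numbered 1511, against 2474 with DESeq2, 876 with the excitatory neuron, 294 with the choroid plexus and 0 with the midbrain and hindbrain covariate (edgeR; 1441 at an unadjusted p under 0.05), and 855 to 1258 without single libraries, Young 4 giving 855, Young 5 971, Old 7 934 and Old 9 952 when omitted. The midbrain and hindbrain covariate took the members' median to 1.35 in Old and 1.95 in Old_CP2, both against Young. That list and group cannot be told apart between old and young libraries. The choroid plexus list separates them too, at 1242 CPM or more in every Young library and at most 984 CPM in Old and 846 CPM in Old_CP2. The fits with it carry the same limit.

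Egr2 in Old against Young reversed, to 0.22 with the midbrain and hindbrain covariate, 0.71 with the excitatory neuron covariate and 0.046 without Old 7 and Old_CP2 15, and ran from -0.49 to 1.15 without single libraries. The midbrain and hindbrain covariate also reversed Rgs4 (0.077) and Cacna1c (0.11) in Old and Rgs4 (0.28), Npy (0.052) and Cacna1c (0.18) in Old_CP2, all against Young. The cause was not tested.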
